A study of Rattus norvegicus with 10 samples.

Results

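The apolipoproteins and the microsomal triglyceride transfer protein were measured in rat liver after 3 days on an iron-deficient diet and in pair-fed controls. The set is the 10 genes Apoa1, Apoa2, Apoa4, Apoa5, Apoc1, Apoc2, Apoc3, Apob, Apoe and Mttp. They were chosen by name as the protein parts of the plasma lipoproteins and the transfer protein that loads lipid onto apolipoprotein B. All 10 were measured, out of 14217 genes with a probe set, and Apob and Apoe have 2 probe sets each, which makes 12 probe sets. The iron-deficient group was 5 rats given a diet with about 3 ppm iron ad libitum, and the pair-fed group was 5 rats given the control diet with 48 ppm iron in the amount that the first group ate. All 10 were male Sprague-Dawley rats aged 5 weeks, whose feeding had been limited to daytime hours beforehand, and each liver was taken 1.5 h after feeding and hybridized to its own Affymetrix rat genome array. The diets differed in iron only, the rats are separate animals, and the time point is a single short one. The values are robust multiarray average (RMA) signals on the log2 scale, in which a difference of 1 is a doubling.

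Lipoproteins carry water-insoluble triglyceride and cholesterol through the blood. In the hepatocyte, Mttp transfers lipid onto the growing apolipoprotein B chain, and the resulting very-low-density particle acquires the C apolipoproteins and apolipoprotein E, which govern its breakdown by lipases and its uptake by receptors. The A apolipoproteins belong mainly to high-density lipoprotein, which takes up cholesterol from cells and returns it to the liver. Rat liver differs from human liver in that it edits part of the Apob mRNA, so that it secretes both the full-length and the short form of the protein.

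The signal of the apolipoproteins and Mttp differed little between the iron-deficient and the pair-fed livers. None of the 12 probe sets passed the rank products, the method that ranks the differences between arrays of the 2 groups over all 25 pairs, at a false discovery rate (FDR) under 0.05: 0 were higher and 0 were lower. Over all 31042 probe sets tested, 87 (0.28%) were higher and 174 (0.561%) were lower in the iron-deficient group, 261 (0.841%) in all, so that a set of 12 would hold few calls in any case. The lowest FDR of the 12 was 0.765. The rank sum called 0 of the 12 as well, against 3 (0.00966%) higher and 31 (0.0999%) lower over all probe sets. By limma with Benjamini-Hochberg adjustment, 0 of the 12 had an adjusted p under 0.05 (range 0.761 to 0.988), and 0 of the 31042 did (lowest 0.397). At an unadjusted limma p under 0.05 there were also 0 of the 12, against 2168 (6.98%) of all probe sets.

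The size of the differences was bounded by their 95% intervals. For 9 of the 12 probe sets the limma interval of the log2 fold change, iron-deficient minus pair-fed, lay within 0.25 of 0 in either direction, that is within 1.19-fold, compared with 45.6% of all probe sets. For all 12 it lay within 0.5 of 0, or 1.41-fold, compared with 93.4% of all probe sets. The log2 fold changes ran from -0.17 to 0.12, with a median of 0.02, against a median of 0.00 over all probe sets. The median size of the difference regardless of sign was 0.06, and it was 0.07 over all probe sets. The shares over all probe sets are not matched for brightness, and 5 of the 12 had a mean signal of 14 or more. The 61 probe sets at that level had a median size of 0.03 and a median SD within groups of 0.0455, against 0.136 over all probe sets. The intervals thus bound the array signal, and narrow ones are not particular to these genes. The mean was higher in the iron-deficient group for 9 of the 12 and lower for 3, beside 51.4% higher over all probe sets. For 0 of the 12 were the values of the 2 groups separate, against 401 probe sets (1.29%) overall.

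**Figure D1:**
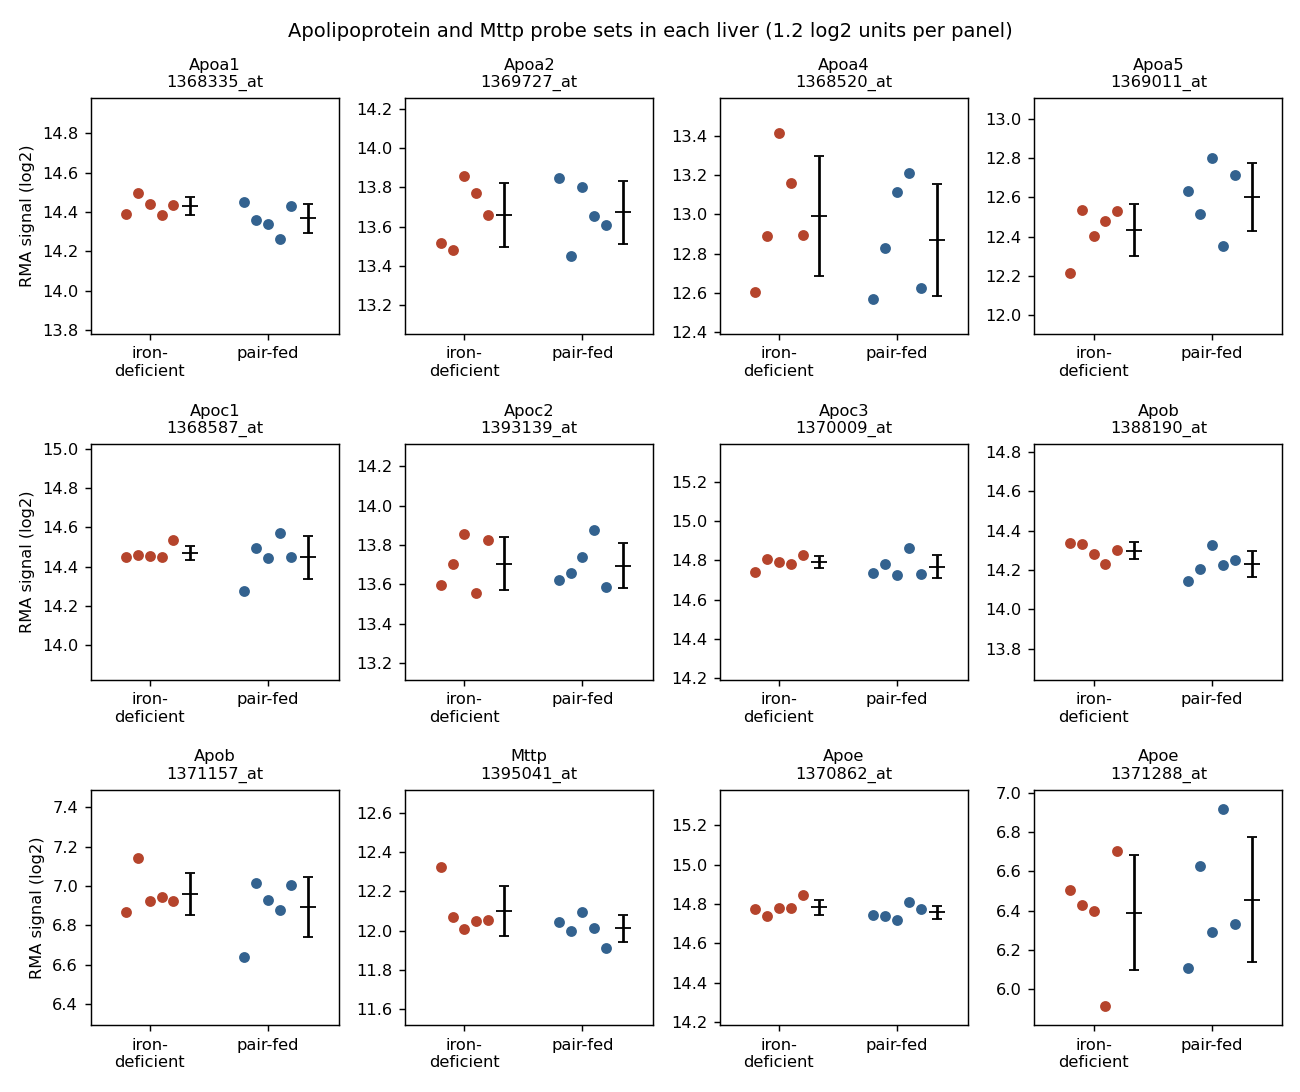
RMA signal (log2) of the 12 probe sets of the apolipoproteins and Mttp, with the 5 iron-deficient livers (red, left) and the 5 pair-fed livers (blue, right) as points in the order of their replicate numbers and the mean with its SD in black. Every panel spans 1.2 log2 units, and the groups overlap in each: Apoa4 and the dimmer Apoe probe set are the most scattered, while Apoc3 and the brighter Apoe probe set lie almost level.

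The members lie in clusters on the rat chromosomes, and these clusters offer a comparison of neighbours. By the RefSeq annotation of the rat assembly GRCr8, Apoa1, Apoc3, Apoa4 and Apoa5 follow one another on chromosome 8, between Sik3 and Zpr1. Apoc2, Apoc4, Apoc1 and Apoe follow one another on chromosome 1, Apoa2 lies on chromosome 13, Apob on chromosome 6 and Mttp on chromosome 2. The neighbours Apoa4 and Apoa5 gave the highest and the lowest log2 fold change of the 12 probe sets, and the promoters of both are shown for that reason, beside that of Apoc2 from the other cluster. Each is the RefSeq GRCr8 window of 250 bases before to 50 bases after the annotated start, written 5′ to 3′ on the strand of the gene. The Apoa4 window is chr8:55435529-55435828 on the + strand, the first of the pair of Apoa5 windows is chr8:55457621-55457920 on the + strand, and the Apoc2 window is chr1:88462316-88462615 on the - strand. Capitals mark the motifs that were searched on both strands.
Apoa4: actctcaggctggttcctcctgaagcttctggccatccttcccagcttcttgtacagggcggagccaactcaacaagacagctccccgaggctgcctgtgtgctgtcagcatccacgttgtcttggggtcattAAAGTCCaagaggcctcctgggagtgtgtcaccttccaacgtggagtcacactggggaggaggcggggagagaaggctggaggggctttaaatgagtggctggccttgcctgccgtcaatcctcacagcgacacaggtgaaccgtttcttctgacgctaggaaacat
Apoa5: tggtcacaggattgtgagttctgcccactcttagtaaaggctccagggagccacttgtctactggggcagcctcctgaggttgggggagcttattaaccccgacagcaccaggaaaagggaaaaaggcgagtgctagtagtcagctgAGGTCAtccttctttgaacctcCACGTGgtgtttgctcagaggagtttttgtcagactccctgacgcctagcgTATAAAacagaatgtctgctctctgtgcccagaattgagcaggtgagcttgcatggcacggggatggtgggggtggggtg
Apoc2: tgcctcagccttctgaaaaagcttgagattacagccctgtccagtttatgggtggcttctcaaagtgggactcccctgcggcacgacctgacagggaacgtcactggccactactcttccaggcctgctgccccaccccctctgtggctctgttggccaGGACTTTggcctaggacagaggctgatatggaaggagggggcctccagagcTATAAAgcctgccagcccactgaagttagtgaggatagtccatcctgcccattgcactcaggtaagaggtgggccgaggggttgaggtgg

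The 4 motifs searched were TATAAA (the TATA box, where the transcription machinery can be positioned), CACGTG (the E-box that USF1 and USF2 can bind), AAAGTCC (a core of the sequence that HNF4A can bind) and AGGTCA (a half-site of nuclear receptors, RORA among them). The Apoa4 window holds AAAGTCC with its first base at -117 from the start. The Apoa5 window holds AGGTCA at -103, CACGTG at -81 and TATAAA at -30, none of them overlapping; CACGTG reads the same on both strands. The Apoc2 window holds AAAGTCC on the opposite strand, which reads GGACTTT as printed, with its first printed base at -91, and TATAAA at -40. Among 33469 windows of the same length, TATAAA was found in 14.2%, CACGTG in 6.42%, AAAGTCC in 4.63% and AGGTCA in 16.2%. These matches describe the letters of the windows only. Of the 10 members 5 have a window in the table, Apoc1 and Apoe being the others, and the letters of the 4 motifs are not in the 2 windows of Apoc1 or the 3 windows of Apoe.

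Apoa1 encodes the main protein of high-density lipoprotein and activates the enzyme that esterifies its cholesterol. Its signal was 14.39, 14.50, 14.44, 14.38 and 14.44 in the iron-deficient livers, against 14.45, 14.36, 14.34, 14.26 and 14.43 in the pair-fed livers. All 5 iron-deficient livers were above the median of the pair-fed livers, but pair-fed 1 exceeded 4 of them, so the groups overlap. The means were 14.43 ± 0.05 and 14.37 ± 0.07 (SD, n = 5 each), with a log2 fold change of 0.06 (SE 0.0585, 95% interval -0.07 to 0.19, limma adjusted p = 0.860, exact permutation test, 2-sided, p = 0.159). An exact test of 5 against 5 cannot give a p below 0.00794.

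Apoa2, another protein of high-density lipoprotein, showed no difference in the means that exceeded the scatter between rats. The signal was 13.52, 13.48, 13.86, 13.77 and 13.66 in the iron-deficient livers, and 13.85, 13.45, 13.80, 13.65 and 13.61 in the pair-fed livers. The highest value was that of iron-deficient 3 and the lowest that of pair-fed 2, and both groups spread over nearly the same range. The log2 fold change was -0.01 (SE 0.0951, 95% interval -0.22 to 0.19).

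Apoa4 is made in the intestine and, in rodents, also in the liver, and travels on chylomicrons and high-density lipoprotein. It was the most variable of the members at their brightest probe sets. The signal was 12.61, 12.89, 13.41, 13.16 and 12.89 in the iron-deficient livers, against 12.57, 12.83, 13.11, 13.21 and 12.63 in the pair-fed livers. Iron-deficient 3 was the highest of all 10, pair-fed 1, iron-deficient 1 and pair-fed 5 were the lowest, and either group covered most of the span. The means were 12.99 ± 0.31 and 12.87 ± 0.29 (SD, n = 5 each), and the log2 fold change of 0.12 (SE 0.158, 95% interval -0.22 to 0.46, limma adjusted p = 0.909) was smaller than the SD within either group. With 1 liver left out the log2 fold change ran from 0.02 (without iron-deficient 3) to 0.22 (without iron-deficient 1), and it was 0.21 without pair-fed 4. Enterocytes also express Apoa4, and the 6 measured enterocyte markers had a mean signal of 6.11 to 6.23 in the iron-deficient livers and 6.09 to 6.18 in the pair-fed livers, with 0 of 6 past the rank products. Anpep raised this mean, at 10.40 in the iron-deficient and 10.15 in the pair-fed livers. The other markers ran from 4.58 (Vil1) to 6.58 (Fabp2) in the iron-deficient livers. The part of enterocytes in the Apoa4 signal was not tested.

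Apoa5, which is made in the liver and lowers plasma triglyceride by helping lipoprotein lipase, had the largest difference of the 12 probe sets, and it was in the negative direction. The signal was 12.21, 12.53, 12.40, 12.48 and 12.53 in the iron-deficient livers, against 12.63, 12.51, 12.80, 12.35 and 12.71 in the pair-fed livers. All 5 iron-deficient livers were below the pair-fed median, iron-deficient 1 was the lowest of all and pair-fed 3 the highest, but pair-fed 4 lay below every iron-deficient liver except iron-deficient 1. The means were 12.43 ± 0.13 and 12.60 ± 0.17 (SD, n = 5 each). The log2 fold change was -0.17, or 0.890 as a ratio (SE 0.0931, 95% interval -0.37 to 0.03), with a limma adjusted p of 0.761, an exact permutation p of 0.143, 2-sided, and a rank products FDR of 0.867. It did not pass any of these tests. With 1 liver left out the log2 fold change ran from -0.23 (without pair-fed 4) to -0.11 (without iron-deficient 1). Without pair-fed 4, Apoa5 was the only one of the 12 with an unadjusted limma p under 0.05 (adjusted p = 0.651).

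**Figure D2:**
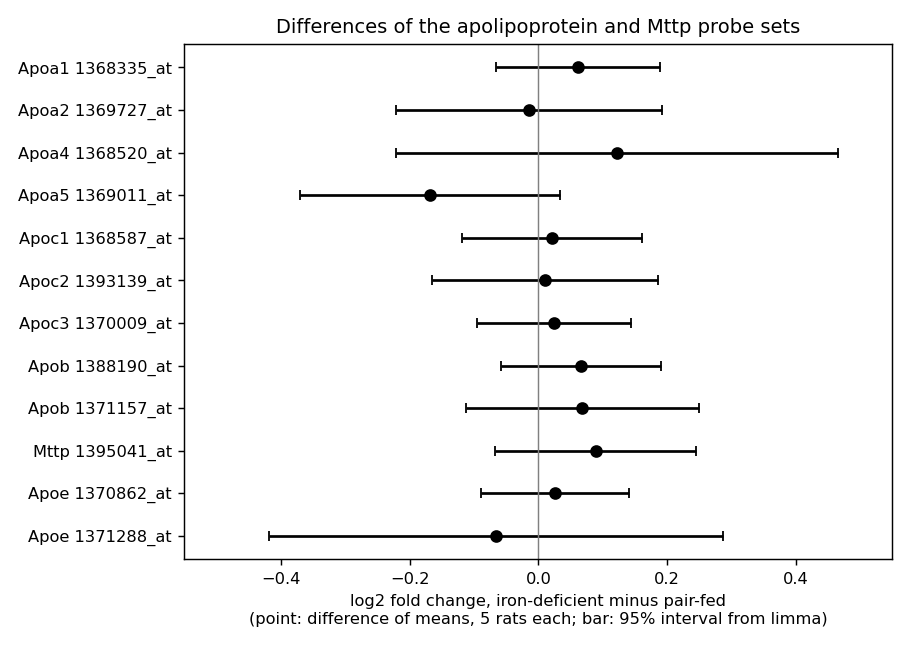
Difference of the group means (log2 fold change, iron-deficient minus pair-fed, 5 rats each) of each probe set of the apolipoproteins and Mttp, with the 95% interval from limma as a bar. All 12 intervals include 0, and they run at the widest from -0.42 to 0.29 for the dimmer Apoe probe set and from -0.22 to 0.46 for Apoa4.

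The C apolipoproteins are small exchangeable proteins: Apoc2 is the cofactor that lipoprotein lipase needs, Apoc3 inhibits that lipase and slows the clearance of remnants, and Apoc1 hinders receptor uptake. The Apoc1 signal was 14.45, 14.46, 14.45, 14.45 and 14.53 in the iron-deficient livers, against 14.28, 14.50, 14.44, 14.57 and 14.45 in the pair-fed livers. Apoc2 had 13.59, 13.70, 13.85, 13.55 and 13.82 in the iron-deficient livers, against 13.62, 13.66, 13.74, 13.88 and 13.58 in the pair-fed livers. Apoc3 had 14.74, 14.81, 14.79, 14.78 and 14.83 in the iron-deficient livers, against 14.74, 14.78, 14.72, 14.86 and 14.73 in the pair-fed livers. Pair-fed 4 was the highest liver for all 3 genes, although Apoc1 and Apoc2 lie on another chromosome than Apoc3. For Apoc1 the iron-deficient livers fell inside the range of the pair-fed livers. The log2 fold changes were 0.02 for Apoc1 (95% interval -0.12 to 0.16), 0.01 for Apoc2 (95% interval -0.17 to 0.19) and 0.02 for Apoc3 (95% interval -0.10 to 0.14).

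Apob encodes the large structural protein of the very-low-density and low-density lipoproteins, present as 1 copy per particle. Its brighter probe set, 1388190_at, had a signal of 14.34, 14.33, 14.28, 14.23 and 14.30 in the iron-deficient livers, against 14.15, 14.20, 14.33, 14.23 and 14.25 in the pair-fed livers. Pair-fed 1, 2 and 4 were below all iron-deficient livers, whereas pair-fed 3 lay among the highest. The means were 14.30 ± 0.04 and 14.23 ± 0.07 (SD, n = 5 each), a log2 fold change of 0.07 (SE 0.0572, 95% interval -0.06 to 0.19, limma adjusted p = 0.846), and the exact permutation p of 0.0952, 2-sided, was the lowest of the 12. The dimmer probe set, 1371157_at, had 6.87, 7.14, 6.93, 6.94 and 6.93 in the iron-deficient livers and 6.64, 7.02, 6.93, 6.88 and 7.004 in the pair-fed livers, with a log2 fold change of 0.07 (95% interval -0.11 to 0.25). Without pair-fed 1 the difference at this probe set was 0.0038, and without iron-deficient 2 it was 0.02. Neither probe set of Apob passed a test.

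Mttp, the endoplasmic reticulum protein that lipidates apolipoprotein B and without which the particle is not secreted, had a signal of 12.33, 12.07, 12.01, 12.05 and 12.05 in the iron-deficient livers. In the pair-fed livers it was 12.05, 12.00, 12.10, 12.01 and 11.91. Iron-deficient 1 was higher than all others, and the remaining 4 iron-deficient livers lay within the range of the pair-fed ones. The means were 12.10 ± 0.13 and 12.01 ± 0.07 (SD, n = 5 each), with a log2 fold change of 0.09 (SE 0.0718, 95% interval -0.07 to 0.24, limma adjusted p = 0.832) that was 0.03 without iron-deficient 1.

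Apoe, the ligand by which remnants are taken up through the LDL receptor and LRP1, had a signal of 14.77, 14.74, 14.78, 14.78 and 14.84 in the iron-deficient livers at its brighter probe set, 1370862_at, and 14.74, 14.74, 14.72, 14.81 and 14.77 in the pair-fed livers. The highest liver was iron-deficient 5 and the lowest pair-fed 3, within a narrow band. The log2 fold change was 0.03 (SE 0.0529, 95% interval -0.09 to 0.14). The dimmer probe set, 1371288_at, had 6.51, 6.43, 6.40, 5.91 and 6.70 in the iron-deficient livers and 6.11, 6.63, 6.29, 6.92 and 6.33 in the pair-fed livers. Its mean difference had the opposite sign, -0.07 (95% interval -0.42 to 0.29), and its sign turned when iron-deficient 4 or pair-fed 4 was left out, so the 2 probe sets of Apoe disagree in direction by less than their error. The dimmer probe sets of Apoe and Apob lay close to the array medians of 6.19 to 6.22, far below the brighter ones. They are thus not equal readings of these transcripts.

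**Figure D3:**
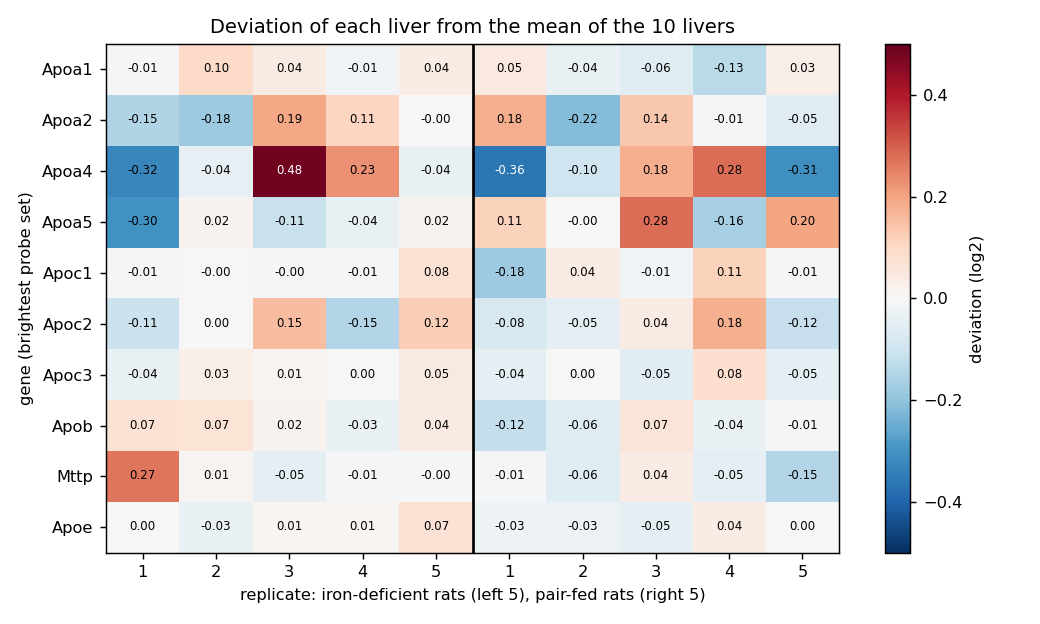
Deviation of each liver from the mean of the 10 livers (log2) for the brightest probe set of each gene, with the 5 iron-deficient rats left of the line and the 5 pair-fed rats right of it. The darkest cells are in the Apoa4 and Apoa5 rows and the single high value of Mttp in iron-deficient 1, while the rows of Apoc3 and Apoe are pale in every rat.

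Which livers were highest or lowest varied between the members. Over the brightest probe set of each gene, iron-deficient 1 was the highest liver for Apob and Mttp and the lowest for Apoa5, iron-deficient 3 the highest for Apoa2 and Apoa4, and pair-fed 4 the highest for the 3 C apolipoproteins and the lowest for Apoa1. Pair-fed 1 was the lowest for Apoa4, Apoc1 and Apob. Iron-deficient 5 and pair-fed 4 were the top pair for Apoc1, Apoc3 and the brighter Apoe probe set. The SD within groups had a median of 0.114 over the 12 probe sets (0.0366 to 0.305), against 0.136 over all probe sets. The brightest probe sets lay near the upper end of the scale, where the highest value per array was 15.34 to 15.36. At a mean of 14 or more, the 5 members had a median SD of 0.0567, and all 61 probe sets at that level had 0.0455.

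At the brightest probe set of each gene, Apoa4 and Apoa5 were the 2 members with the largest SD over the 10 arrays, and the genes most like them in pattern were looked up as a description, by Pearson correlation over the 10 arrays among the brightest probe sets of 14216 other genes. For Apoa4 these were Sypl2 (r = 0.972), Igfbp5 (r = 0.926) and Sap30 (r = 0.918), whose signals spanned 0.40, 0.28 and 0.37 log2 units over the arrays. For Apoa5 they were Bcdin3d (r = 0.923), Polr2d (r = 0.911) and C1galt1c1 (r = 0.907). The arrays share their normalization, and these are the highest of 14216 correlations, for which no p is given.

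The arrays and the tissue were checked against the same comparison. Hepatocyte markers such as albumin were at a mean signal of 14.63 to 14.66 in the iron-deficient livers and 14.61 to 14.65 in the pair-fed livers, with 0 of 8 past the rank products. Of their means 6 were higher and 2 lower. These signals lay near the highest value per array, 15.34 to 15.36, where RMA can narrow differences. The markers therefore cannot show whether the hepatocyte content was equal. Of 9 red cell markers 7 passed the rank products as lower at the brightest probe set, and 8 had a lower mean. Their list mean was 7.14 to 7.83 in the iron-deficient livers and 7.55 to 8.48 in the pair-fed livers. Kupffer cells and macrophages also make Apoe, and 0 of their 10 markers passed the rank products. Of these 10, 9 had a lower mean and 1 a higher one (median log2 fold change -0.12). Their list mean was 9.30 to 9.75 in the iron-deficient livers and 9.42 to 9.96 in the pair-fed livers. None of the endothelial (5), stellate (7), lymphocyte and neutrophil (6) or exocrine pancreas (7) markers measured passed the rank products. Their directions were not even, however. The mean was higher for 5 of 5 endothelial markers (median log2 fold change 0.12) and 6 of 7 stellate markers (0.19). It was also higher for 6 of 7 exocrine pancreas markers (0.03), and for 1 of 6 lymphocyte and neutrophil markers (-0.09). In whole liver, fewer cells of a type and less RNA per cell cannot be told apart, and the part of these cells in the values of the members was not tested. Iron-deficient 1 stood farthest from the other arrays, with a mean correlation of 0.9915 against 0.9935 to 0.9941 for the others, and had the highest 3′ minus 5′ difference of the GAPDH control, 0.36 against -0.05 to 0.11 in the others. Without it, 0 of the 12 probe sets passed and 10 had a higher mean in the iron-deficient group.

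The genes that act on the same particles were followed in 5 lists with 84 of 96 genes measured. At the brightest probe set of each gene 1 rose and 1 fell by the rank products, against 41 (0.288%) and 106 (0.746%) of 14217 genes. The other apolipoproteins, such as Apoc4, Apom and Apoh, had 0 of 11 past the test, with 4 higher and 7 lower means and a median log2 fold change of -0.02. The largest differences among them were -0.30 for Apol3l1 (95% interval -0.63 to 0.03) and -0.24 for Clu, clusterin, a chaperone on high-density lipoprotein (95% interval -0.40 to -0.09, limma adjusted p = 0.601). Of the 84 genes, 2 (2.38%) had groups that did not overlap at the brightest probe set, against 1.29% of all probe sets, and both were lower: Clu and Cidec, a lipid droplet protein of the next list. These shares are not on the same base, because the share over all probe sets is not limited to the brightest of each gene. Clu had 12.73 to 13.06 in the iron-deficient livers and 13.14 to 13.24 in the pair-fed livers.

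The genes of Apob mRNA editing and particle assembly had 0 of 23 past the test, with 9 higher and 14 lower means and a median of -0.02. The largest differences were 0.40 for Acsl3, an acyl-CoA synthetase used in very-low-density lipoprotein assembly (SE 0.178, limma adjusted p = 0.706), and -0.33 for Ces1d, a carboxylesterase that mobilizes stored triglyceride (SE 0.138, limma adjusted p = 0.681). Cidec had 10.57 to 10.76 in the iron-deficient livers and 10.81 to 11.00 in the pair-fed livers (log2 fold change -0.24, limma adjusted p = 0.601), and it did not pass. The editing enzyme itself, Apobec1, had a log2 fold change of -0.27 (95% interval -0.70 to 0.16), and its cofactor A1cf had -0.25 (95% interval -0.50 to 0.01); these 3 genes were named after their values had been seen. The array measures the amount of Apob mRNA and not its editing.

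In plasma remodelling 1 of 10 genes rose, Abca1, the transporter that gives cellular cholesterol to apolipoprotein A-I. At its probe set 1382431_at the signal was 11.00, 11.58, 10.96, 11.51 and 11.55 in the iron-deficient livers, against 8.68, 10.67, 10.74, 9.07 and 11.45 in the pair-fed livers. The groups overlap, and pair-fed 1 and 4 were the low ones. The log2 fold change was 1.20 (SE 0.443, limma adjusted p = 0.662), and a second probe set, 1394490_at, gave 1.10 and passed. The other 2, 1383355_at and 1384381_at, gave 0.01 and 0.12 and did not pass. The mean over the Abca1 probe sets differed by 0.61 and passed, and the rank sum called neither of the 2 probe sets that had passed. Lpl, lipoprotein lipase, had a log2 fold change of -0.35 (95% interval -0.86 to 0.16) and did not pass.

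Among the lipoprotein receptors 1 of 12 genes fell, Sorl1, a sorting receptor of the LDL receptor family that binds Apoe. Its brightest probe set, 1377457_a_at, had 8.22, 8.80, 9.05, 9.00 and 8.57 in the iron-deficient livers, against 8.95, 9.22, 9.31, 9.33 and 9.51 in the pair-fed livers. Only pair-fed 1 lay within the range of the iron-deficient livers. The log2 fold change was -0.54 (SE 0.151, limma adjusted p = 0.601). Of its 8 probe sets, 1393933_at also passed. The call at 1377457_a_at was lost without iron-deficient 1 (-0.41), pair-fed 3 (-0.53) or pair-fed 5 (-0.48), and that at 1393933_at was lost without any of those or pair-fed 4 (-0.50). The mean over the Sorl1 probe sets differed by -0.33 and did not pass, and the rank sum called neither of the 2 probe sets that had passed. Cd36, a fatty acid and lipoprotein scavenger receptor, had -0.42 (95% interval -0.85 to 0.01) and did not pass, with an FDR of 0.0509. It passed with the mean over the probe sets of each gene, without iron-deficient 3 and without pair-fed 5.

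Of the transcriptional regulators of these genes, 0 of 28 passed at the brightest probe set, with 20 higher and 8 lower means and a median of 0.08. The factors whose motifs are capitalized in the promoters shown above had log2 fold changes of 0.03 for Hnf4a (95% interval -0.19 to 0.24), -0.04 for Rora (95% interval -0.31 to 0.23), -0.03 for Usf1 (95% interval -0.19 to 0.12) and 0.21 for Usf2 (95% interval 0.06 to 0.36, limma adjusted p = 0.620). The dimmer Usf2 probe sets gave 0.13 (1388088_a_at, 95% interval -0.18 to 0.44) and 0.05 (1398714_at, 95% interval -0.12 to 0.23). The largest differences were 0.31 for Ppargc1a, a coactivator that is induced in fasting (limma adjusted p = 0.715), and 0.30 for Srebf2, which drives cholesterol synthesis (limma adjusted p = 0.703). A dimmer probe set of Onecut1, the factor HNF6, passed as higher with an FDR of 0.0488 and a log2 fold change of 0.34 (SE 0.560). This call was lost without iron-deficient 1 (0.16), iron-deficient 2 (-0.05), iron-deficient 5 (0.43), pair-fed 1 (0.08), pair-fed 2 (0.29) or pair-fed 4 (0.08), and the brightest Onecut1 probe set, 1371034_at, with 0.29, did not pass.

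**Figure D4:**
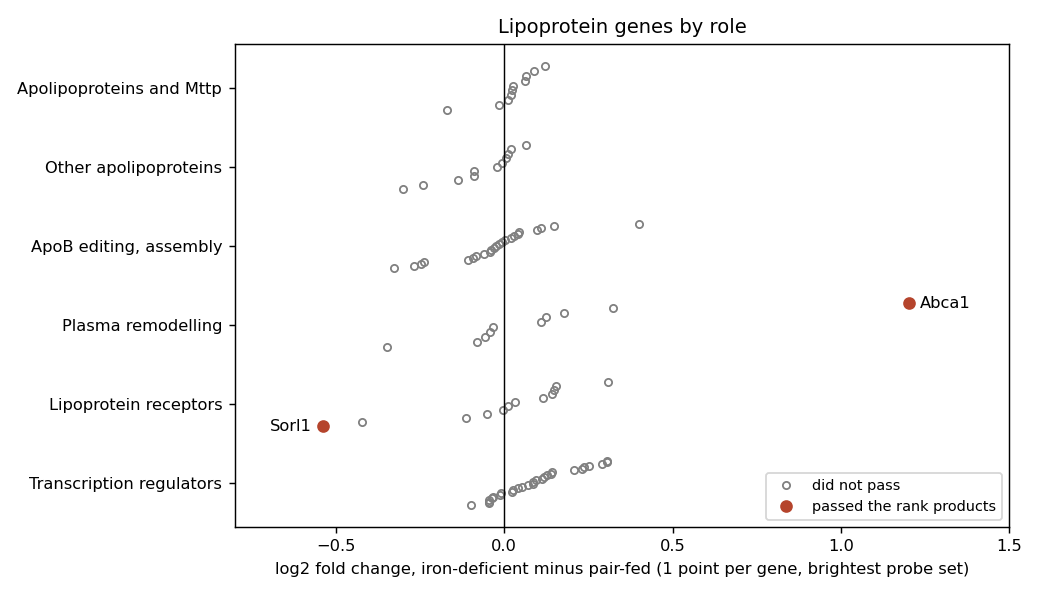
Log2 fold change (iron-deficient minus pair-fed) at the brightest probe set of each gene, 1 point per gene, for the apolipoproteins and Mttp and for the 5 lists of genes that act with them; filled points passed the rank products. The members lie between -0.17 and 0.12, and among the other lists Abca1 (1.20) and Sorl1 (-0.54) are the filled points.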

How the data were processed

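Hepatic total RNA of 10 rats was hybridized to 1 array each. The values are log2 RMA signals that the authors calculated from the scanned arrays with Bioconductor and deposited; RMA corrects background, normalizes by quantiles and summarizes probes, which can narrow differences of very bright probe sets. Control samples were grouped by title and treatment, because their source field names the iron-deficient diet. After 57 control probe sets were left out, 31042 were tested. By the platform annotation 20826 of them were paired with 1 gene, 436 with several and 9780 with none. For 20758 of the probe sets paired with 1 gene, the Entrez ID was found in the RefSeq GRCr8 annotation. That annotation was used for names, order of genes and promoters. Rank products and the rank sum used 100 permutations within arrays. limma 3.58.1 (R 4.3.3) gave fold changes, SE, intervals and Benjamini-Hochberg adjusted p-values over all probe sets. Exact tests went through every split of the 10 arrays into 5 and 5, with Python 3.11.15 and numpy 2.4.6, and scripts were tested on simulated data. The members and lists were chosen with earlier results of these data known. Named were all members and, from each other list, genes past the rank products at any probe set and the 2 with the largest difference at the brightest probe set. Alternatives were leaving out each array, a replicate block, array weights, median centring, repeated quantile normalization, leaving out probe sets below 5, averaging the probe sets of each gene, the rank sum and limma. The number of arrays limits the precision, and 0 columns were left out.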

Additional observations from a re-analysis of the deposited data

Results flagged for a closer look

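Among 34 groups of 5 values examined, of which 24 are members' groups, 3 held a liver that lay apart from the other 4 by more than 0.71 of the group's range, as chance alone gives in about 1 of 20 groups. Apoc1 was 14.53 in iron-deficient 5, next to 14.46 in the nearest liver of its group. The dimmer Apob probe set, 1371157_at, was 7.14 in iron-deficient 2, next to 6.94 in the nearest. Mttp was 12.33 in iron-deficient 1, next to 12.07 in the nearest, and that array was also the farthest from the others over all probe sets.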

How the results depend on the processing

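Under every alternative run, 0 of the members' probe sets passed the rank products in either direction, or limma where limma replaced them. The higher mean in the iron-deficient group held for 8 to 10 of 12 when 1 array was left out. Over arrays left out, the log2 fold change ran from -0.0701 to 0.0294 for Apoa2, -0.0218 to 0.0521 for Apoc1, -0.0274 to 0.0552 for Apoc2 and -0.153 to 0.0529 for Apoe at 1371288_at, so that these had no stable sign; that of Onecut1 at 1387760_a_at ran from -0.0548 to 0.639. With array weights Apoa2 was 0.007, and with the mean over its probe sets Apoe was -0.0201. The genes of the 5 other lists past the test numbered 1 to 2 higher and 0 to 2 lower without 1 array, 0 and 0 by the rank sum, and 0 and 0 by limma. Besides Abca1 and Sorl1, the genes that passed in some of these settings were Onecut1 and Angptl8 (higher) and Cd36 (lower). Over all probe sets the count without 1 array was 47 to 95 higher and 84 to 187 lower, and 69 and 137 with dim probe sets left out. No pairing by replicate number was seen in the signals: arrays of the same number had correlations of -0.04 to 0.09, and 1 of 5 iron-deficient arrays correlated best with its own number. These correlations cannot show whether rats of the same number were matched for food. With the replicate number as a block, 79 probe sets were higher and 150 lower, 0 of the members passed, and 2 genes of the other lists were higher.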
